A study of Mus musculus with 2 samples.

Results

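The genes described here encode 8 ligands of lymphocyte checkpoint and costimulatory receptors, namely Cd274, Pdcd1lg2, Cd80, Cd86, Lgals9, Pvr, Nectin2 and Vsir. They were taken by symbol from the 56941 genes of the count tables, and all 8 were found. Their UMIs (unique molecular identifiers, each standing for 1 captured transcript) were followed through macrophages, dendritic cells, granulocytes, endothelial-like cells and tumor-like cells. The cells came from liver metastases of MC38-LM3b, a liver-metastatic derivative of the MC38 mouse colorectal cancer line, grown in C57BL/6 mice of 6 to 8 weeks that had received the tumor cells into the spleen 2 weeks earlier. In the Ctrl group the tumor cells carried a scrambled hairpin (shScramble), and in the KD group a hairpin against SLAMF3 (shSLAMF3), the receptor encoded by Ly9. Lesions of 3 mice were pooled in each group, CD45+ cells were enriched, and 1 droplet-based library was sequenced per group. Only the injected tumor cells carried a hairpin, while the host cells were wild type as far as the labels and methods state. Each group was therefore 1 library, and no test between the groups was possible. The intervals given below cover counting error only, and the spread between mice is unknown.

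Checkpoint ligands are surface or secreted proteins through which antigen-presenting and stromal cells restrain or support lymphocytes. PD-L1 (Cd274) and PD-L2 (Pdcd1lg2) bind PD-1 and dampen T cell activation, and PD-L1 is a classical interferon-inducible protein. CD80 and CD86 (Cd80, Cd86) are shared by the activating receptor CD28 and the inhibitory receptor CTLA-4, and they mark mature antigen-presenting cells. Galectin-9 (Lgals9) is a secreted lectin that binds TIM-3 among others, the nectin-family proteins PVR and NECTIN2 are bound by the activating receptor CD226 and by the inhibitory receptor TIGIT, and VISTA (Vsir) is an inhibitory protein of myeloid and T cells. In the liver, Kupffer cells and sinusoidal endothelial cells are long known to carry several of these ligands.

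The Ctrl library held 67207234 UMIs in 10416 barcodes and the KD library 64444715 UMIs in 10943 barcodes, of which 9814 and 10185 passed the filters, with medians of 5412 and 4989 UMIs per cell. The libraries shared 27 barcode sequences. Classes were rebuilt by clustering without the 8 ligands and were named from marker genes, so that "macrophages" stands for macrophage-like clusters, monocytes included, and likewise for the other names. In Ctrl and KD there were 3208 and 2743 macrophages, 464 and 653 dendritic cells, 782 and 2224 granulocytes, 150 and 645 endothelial-like cells and 161 and 96 tumor-like cells. Endothelial-like cells expressed all 8 endothelial markers, at a summed 9191 and 11102 CPM, Stab2 and Clec4g of the liver sinusoid included, and they held Ptprc, the gene of CD45, at only 98.4 and 121 CPM. CPM here are the UMIs of a gene per 1000000 UMIs of its class in a library. The tumor-like cells were led by Krt8 and Krt18 together with Col1a1 and Col3a1, and at least 1 UMI of Krt8, Krt18 or Krt19 was present in 87% and 86.5% of them. Their fibroblast markers summed to 1920.0 and 902 CPM beside 1480.0 and 1524 CPM of epithelial markers, so the name rests on keratins and a mixture with fibroblasts cannot be told apart from tumor cells that make collagen. The targeted gene Ly9 had 12 and 7 UMIs in the tumor-like cells, too few to check the knockdown at this depth (log2 ratio -0.14, 95% interval -1.73 to 1.32). A cluster of 929 and 349 cells (Ctrl and KD) led by Cadm1 and Slc8a1, with Adgre1 and Csf1r, stayed unnamed by the marker rule and is outside the macrophages. Another class, of 435 and 738 cells, held all 5 NK markers but was led by Lef1 and Tcf7 beside Klra7 and Ncr1 and had summed T cell markers of 1649.8 and 2092 CPM. With finer clustering there was a cluster of 252 and 509 cells led by Lef1, Tcf7 and Il7r, unnamed, and one of 184 and 228 cells led by Ncr1, so the class is called Lef1 and Ncr1 cells, after its leading genes, and not NK cells. Summed granulocyte markers were higher in KD in all 5 classes (454 and 2246 CPM in macrophages, 137 and 1584 CPM in endothelial-like cells), and their part in the ligand values was not tested. Summed macrophage markers were 1577 and 2164 CPM in endothelial-like cells and 745 and 1103 CPM in tumor-like cells, beside 10247 and 11492 CPM in macrophages. The part of macrophage UMIs in the values of endothelial-like and tumor-like cells was likewise not tested.

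**Figure D1:**
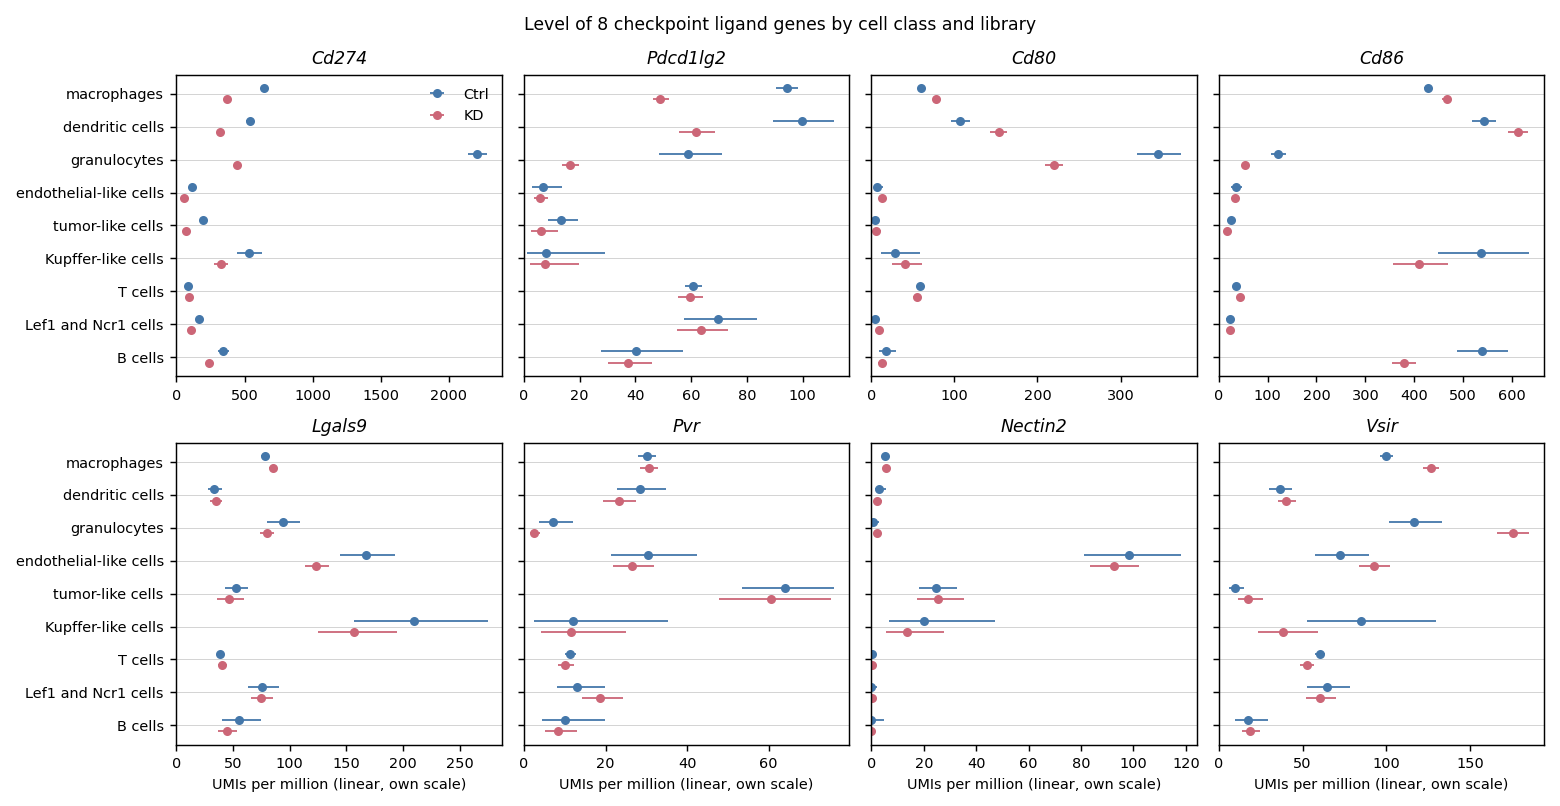
Each panel plots 1 ligand gene, with its level in CPM on a linear horizontal axis of its own and 9 cell classes in rows. Points are the Ctrl (blue) and KD (red) library sums and bars their exact Poisson 95% intervals. Cd274 stood at 2210.2 CPM in Ctrl granulocytes and at 444 CPM in KD granulocytes, while Nectin2 was highest in endothelial-like cells and Pvr in tumor-like cells in both libraries.

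Each ligand had its own distribution over the classes, and that distribution was largely shared by the libraries. Granulocytes held the highest levels of Cd274, Cd80 and Vsir in both libraries, although for Vsir in Ctrl the intervals of granulocytes and macrophages overlapped. Dendritic cells led for Cd86 in both libraries, with overlapping intervals for B cells and Kupffer-like cells in Ctrl. Kupffer-like and endothelial-like cells led for Lgals9, tumor-like cells for Pvr and endothelial-like cells for Nectin2. Pdcd1lg2 alone had a different leading class in each library, dendritic cells in Ctrl and Lef1 and Ncr1 cells in KD, and the intervals of the leading classes overlapped in both. Macrophages, which were 32.7% of Ctrl and 26.9% of KD cells, supplied the largest share of the UMIs of 6 ligands in both libraries, from 41.2% for Pdcd1lg2 in KD to 63% for Cd86 in Ctrl. T cells, 32.8% of Ctrl cells, held 8.06% of the Cd274 and 5.48% of the Cd86 UMIs in Ctrl. T cells held the largest share for Cd80 in Ctrl (34.2% against 32.7% in macrophages), and endothelial-like cells held 64.9% of the Nectin2 UMIs in KD.

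The design compares tumors with and without SLAMF3 knockdown, and the question asked of the ligands was whether their levels in the surrounding cells differed between the libraries. A ligand was called when its CPM differed by at least 1.5-fold and the exact binomial 95% interval of the log2 ratio, KD over Ctrl, left out 0, with at least 20 UMIs over both libraries. In macrophages, 2 of 8 ligands were called lower in KD, Cd274 and Pdcd1lg2, and 0 were called higher, where 7.65% and 6.9% of the 15522 genes measured in that class were called lower and higher. The same 2 ligands were called lower in dendritic cells, again with 0 of 8 higher, beside 5.16% lower and 4.78% higher among 11637 genes. Granulocytes had the most calls, with Cd274, Pdcd1lg2, Cd80, Cd86 and Pvr lower and Vsir higher among 7 measured ligands, beside 12.3% lower and 12.7% higher among 9767 genes. In endothelial-like cells Cd274 was the only call among 8 measured ligands (7.92% lower and 6.03% higher among 11361 genes). In tumor-like cells Cd274 was likewise the only call among 7 measured ligands (14.3% lower and 4.74% higher among 10496 genes). The median log2 ratio of all genes measured was 0.01 in macrophages, -0.02 in dendritic cells, 0.10 in granulocytes, -0.02 in endothelial-like cells and -0.15 in tumor-like cells. Under TMM scaling the share of higher calls among all calls changed from 43.2% to 61.2% in endothelial-like cells and from 24.9% to 41.2% in tumor-like cells, with Cd274 called lower in both classes under either scaling.

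**Figure D2:**
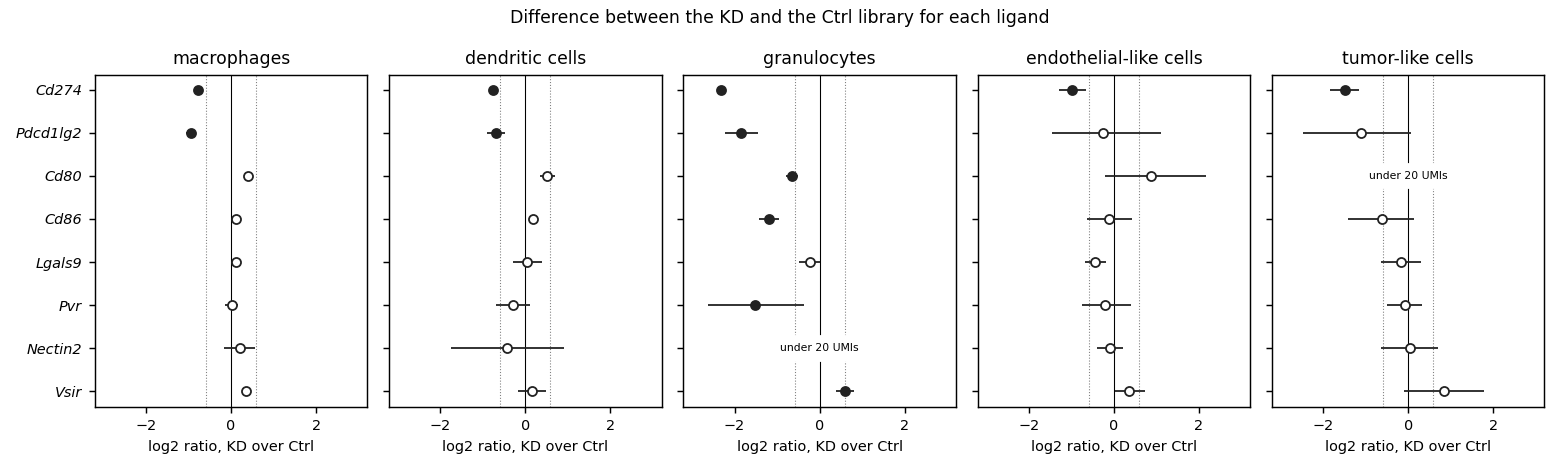
Log2 ratio of CPM, KD over Ctrl, for each ligand (rows) in 5 cell classes (panels), with exact binomial 95% intervals as bars. Filled points are calls, dotted lines mark 1.5-fold, and the Cd274 point lies left of 0 in all 5 panels, from -2.31 in granulocytes to -0.76 in dendritic cells.

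Cd274, the gene of PD-L1, was lower in the KD library in all 5 classes. Its level in granulocytes was 2210.2 (95% interval 2143 to 2279) CPM in Ctrl and 444 (95% interval 429 to 459.9) CPM in KD, 4.97-fold lower (log2 ratio -2.31, 95% interval -2.38 to -2.25). Macrophages had 640.0 (95% interval 629.8 to 650.3) CPM in Ctrl and 372 (95% interval 364 to 380.1) CPM in KD, a 1.72-fold difference (log2 ratio -0.78, 95% interval -0.82 to -0.74). Dendritic cells lay close to macrophages, with 537 CPM in Ctrl against 316 CPM in KD (log2 ratio -0.76, 95% interval -0.86 to -0.67), although the ratio was -0.38 and no longer a call with classes built without clusters. Granulocytes thus stood apart from every other class in Ctrl, whereas in KD they lay near macrophages. Both non-hematopoietic classes were far lower. Endothelial-like cells held 116 CPM in Ctrl against 58.7 CPM in KD from 133 and 252 UMIs (log2 ratio -0.98, 95% interval -1.29 to -0.67), and tumor-like cells 195 CPM in Ctrl against 69.6 CPM in KD from 396 and 91 UMIs (log2 ratio -1.49, 95% interval -1.83 to -1.15). Without likely doublets the tumor-like ratio was -2.67, and the size of that difference is therefore uncertain. Among the remaining classes Cd274 was lower in KD in Kupffer-like cells (532 and 326 CPM, called), Lef1 and Ncr1 cells (168 and 108 CPM, called) and B cells (342 and 241 CPM, -0.51 on the log2 scale and under 1.5-fold). Over all genes, 7.14% were called lower and 5.51% higher in Kupffer-like cells, 4.59% and 3.11% in Lef1 and Ncr1 cells and 4.12% and 2.24% in B cells. T cells were alike in the libraries, with 88.1 CPM in Ctrl against 89.9 CPM in KD (log2 ratio 0.03, 95% interval -0.08 to 0.14). The unnamed Cadm1 and Slc8a1 cells and a small unnamed cluster together had 677 CPM in Ctrl against 422 CPM in KD.

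Cells were also thinned to 1500 UMIs each, so that shares of cells with a UMI can be compared at equal depth. A Cd274 UMI was then seen in 77.8% and 34.8% of Ctrl and KD granulocytes, 51.1% and 35.6% of macrophages and 38.6% and 26.5% of dendritic cells. Endothelial-like cells had 13.8% and 7.09%, tumor-like cells 20.9% and 6.67% and T cells 11.6% and 11.5%. The KD shares of endothelial-like and tumor-like cells thus lay under the T cell share. T cells can express Cd274 themselves, so their share is a comparison and not a background level. In Ctrl the 95% interval of the endothelial-like share, 8.26% to 21.2% from 17 of 123 cells, held the T cell share. By CPM the Ctrl endothelial-like level, 116, lay above the 88.1 of T cells, and their intervals did not overlap. In KD both classes lay below T cells by CPM (58.7 and 69.6 against 89.9), tumor-like cells with an overlapping interval. Whether these low values are background was not tested. The Ctrl tumor-like share, with an interval of 14.8% to 28.2%, lay above the T cell share. The unthinned shares were 83.1% and 47.4% in granulocytes (median 2149.5 and 2813 UMIs per cell) and 34.7% and 34.8% in T cells (median 6602 and 5582). In KD the thinned share of macrophages was not below that of granulocytes, unlike the CPM, and no order of these classes in KD is read from the shares.

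The class values averaged over cell states with different Cd274 levels. When the granulocytes were clustered again, Cd274 was called lower in KD in 6 of 6 sub-clusters (6.93% of all gene ratios in the granulocyte sub-clusters were called lower and 6.36% higher), from -2.21 in immature granulocytes (Camp, Ltf, Ngp) to -0.62 in a sub-cluster led by Cxcl10, Ifit2, Gbp5 and Ifit3. That interferon sub-cluster held 3328 CPM in Ctrl against 2165 CPM in KD in 421 and 115 cells, the immature granulocytes 599 CPM in Ctrl against 129.5 CPM in KD, and granulocytes led by Fosb and Cxcl3 1466 CPM in Ctrl against 368 CPM in KD. Most Ctrl granulocytes, 53.8%, fell in the interferon sub-cluster, and most KD granulocytes in sub-clusters led by Saa3 and Ccl2 (36.5%) or Retnlg and Ly6g (26.2%). Interferon genes both defined that sub-cluster and differed between the libraries, so its size is given only as the makeup behind the class value. With 5 of the 6 sub-clusters weighted alike in both libraries, the granulocyte ratio of Cd274 was -0.99 on the log2 scale instead of -2.31. It stayed past 1.5-fold, but no interval of its own was computed for it. The Retnlg and Ly6g granulocytes, with 19 Ctrl and 582 KD cells, were left out there, since sub-clusters needed at least 20 cells in each library.

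Among macrophages, Cd274 was high in inflammatory cells led by Il1a, Cxcl1 and Il6, with 1278 CPM in Ctrl against 564 CPM in KD (log2 ratio -1.18, 95% interval -1.27 to -1.09), and in a sub-cluster that also carried granulocyte genes, with 1478 CPM in Ctrl against 446 CPM in KD. Classical monocyte-like cells (Vcan, Ly6c2, Plac8) had 821 CPM in Ctrl against 282 CPM in KD (log2 ratio -1.54, 95% interval -1.66 to -1.43). The most numerous sub-cluster, led by Cxcl11 and Ly6i together with the heat shock genes Hspa1a and Hspa1b, had 719 and 537 CPM in Ctrl and KD and was under the limit for a call (log2 ratio -0.42, 95% interval -0.49 to -0.35). Cells led by Selenom and Ckb had the lowest Ctrl level of the large sub-clusters, 323 and 209 CPM (log2 ratio -0.63, 95% interval -0.83 to -0.43). In macrophages that also carried T cell genes the interval held 0, with 443 and 405 CPM (log2 ratio -0.13, 95% interval -0.42 to 0.17). The log2 ratio was below 0 in 11 of 11 macrophage sub-clusters with at least 20 Cd274 UMIs, and 8 of them were calls, beside 6.45% lower and 5.72% higher over all gene ratios in these sub-clusters. Borders between macrophage sub-clusters depended on the random start of the cluster search, and 2 other starts gave 7 calls of 11 and 6 of 10, with every ratio below 0. In dendritic cells the leading state was the migratory DC-like cells (Ccr7, Fscn1, Ccl22), with 1302 CPM in Ctrl against 566 CPM in KD (log2 ratio -1.20, 95% interval -1.52 to -0.88), and Cd209a dendritic cells had 764 and 404 CPM. The cDC1-like cells (Xcr1, Clec9a) had 373 and 127 CPM, the widest ratio of the dendritic states (log2 ratio -1.56, 95% interval -1.91 to -1.21), and pDC-like cells the lowest levels of the measured states, 82.1 and 42.2 CPM. Of 5 dendritic sub-clusters measured, 5 had a ratio below 0 and 4 were calls, beside 6.19% lower and 4.69% higher over all gene ratios there.

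**Figure D3:**
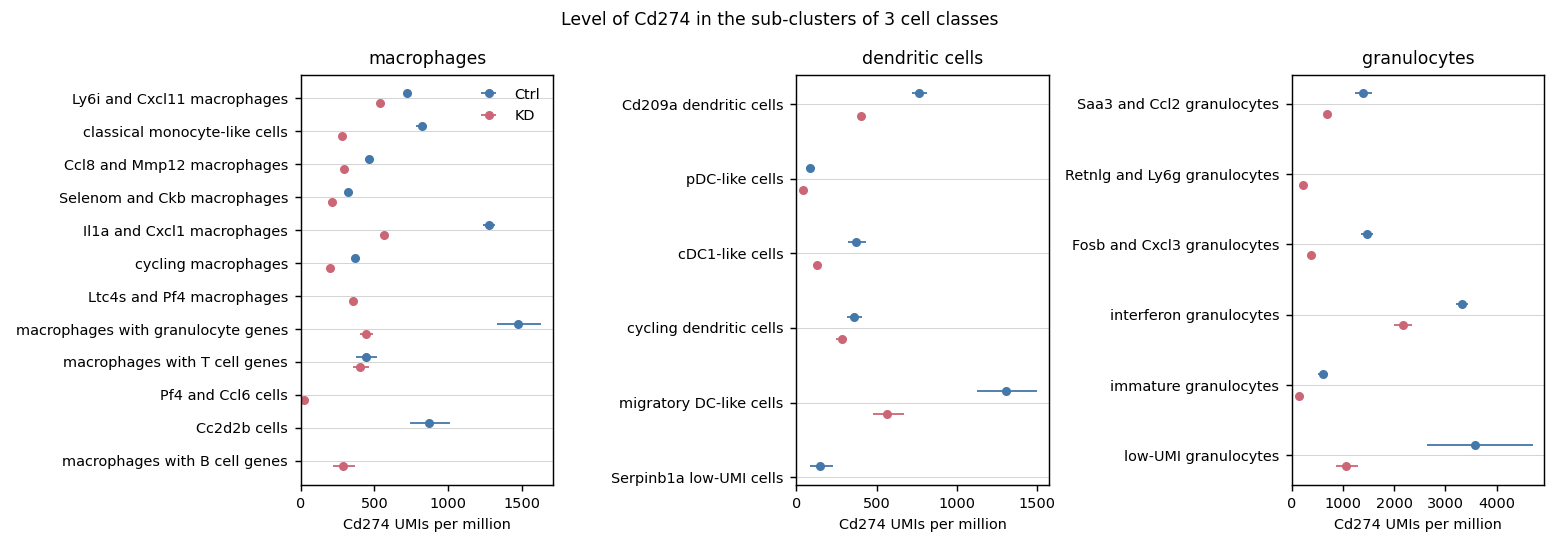
Level of Cd274 in CPM (horizontal axis) in the sub-clusters of macrophages, dendritic cells and granulocytes, for Ctrl (blue) and KD (red), with exact Poisson 95% intervals. A point is drawn where a library has at least 20 cells in a sub-cluster, and wherever both points are drawn the Ctrl point lies to the right of the KD point.

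Pdcd1lg2, the gene of PD-L2, is the neighbor of Cd274 on chromosome 19 and was the other ligand called lower in more than 1 class. Macrophages held 94.2 CPM in Ctrl against 48.9 CPM in KD (log2 ratio -0.95, 95% interval -1.05 to -0.84), dendritic cells 99.8 CPM in Ctrl against 61.8 CPM in KD (log2 ratio -0.69, 95% interval -0.91 to -0.47) and granulocytes 59 CPM in Ctrl against 16.5 CPM in KD (log2 ratio -1.84, 95% interval -2.23 to -1.45). Levels in the libraries did not overlap within their intervals in any of these 3 classes. Without the cells of highest doublet score the dendritic ratio was -0.50 and with classes built without clusters -0.34, neither a call. With an equal mix of 5 of the 6 granulocyte sub-clusters the granulocyte ratio was -1.07. Endothelial-like cells had 8 and 25 UMIs, and tumor-like cells 27 and 8, too few to show a difference (log2 intervals -1.45 to 1.10 and -2.47 to 0.06). T cells (60.7 and 59.6 CPM) and Lef1 and Ncr1 cells (69.6 and 63.6 CPM) held it at similar levels in the libraries. After thinning, 10.7% and 5.62% of Ctrl and KD macrophages and 7.71% and 8.61% of T cells had a UMI, so the KD macrophages were under the T cell share, while the share in endothelial-like cells, 1.63% and 0.532%, was lower still. Among macrophage sub-clusters with at least 20 cells in both libraries, its level was highest in KD in the Ccl8 and Mmp12 cells, 179 and 92.5 CPM, which also led in Ctrl, and not in the Il1a and Cxcl1 cells high in Cd274, which had 73.6 and 30.4 CPM. Classical monocyte-like cells had little of it, 21.1 and 9.31 CPM. Calls lower in KD were made in 8 of 10 macrophage sub-clusters with at least 20 UMIs, in 3 of 4 dendritic sub-clusters and in 3 of 5 granulocyte sub-clusters, the last being 2 of 5 under 1 other random start. Over all gene ratios, calls lower and higher were 6.45% and 5.72% in macrophage, 6.19% and 4.69% in dendritic and 6.93% and 6.36% in granulocyte sub-clusters.

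The promoters of both PD-1 ligand genes are shown because these 2 neighboring genes were lower together in myeloid cells, and that of Lgals9 because it was the only 1 of 6 ligand promoters with a match to an interferon motif. RefSeq promoters, from 250 bases before to 50 after the annotated start on GRCm38.p6, were found for Cd274, Pdcd1lg2, Cd80, Lgals9, Nectin2 and Vsir. The windows were searched on both strands for 2 copies of GAAA that are 2 bases apart, a pair of interferon response half-sites present in 3.44% of all 32851 promoters of the table, for TTCNNNGAA, the core of STAT binding sites (8.30%), and for GGG followed after 2 bases by TTTCC, a form of the NF-kB site (1.63%). No match overlapped another. Capitals mark the 2 matches to the GAAA pair in Lgals9, and the windows of the other 5 genes had no match to any of the 3 motifs.
Cd274 promoter, chr19:29367188-29367487, plus strand: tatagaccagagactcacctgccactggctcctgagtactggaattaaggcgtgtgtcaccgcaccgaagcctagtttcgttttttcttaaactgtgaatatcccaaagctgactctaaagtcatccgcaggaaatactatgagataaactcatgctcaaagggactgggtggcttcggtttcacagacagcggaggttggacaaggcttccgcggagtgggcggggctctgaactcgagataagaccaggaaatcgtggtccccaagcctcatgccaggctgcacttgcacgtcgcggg
Pdcd1lg2 promoter, chr19:29410669-29410968, plus strand: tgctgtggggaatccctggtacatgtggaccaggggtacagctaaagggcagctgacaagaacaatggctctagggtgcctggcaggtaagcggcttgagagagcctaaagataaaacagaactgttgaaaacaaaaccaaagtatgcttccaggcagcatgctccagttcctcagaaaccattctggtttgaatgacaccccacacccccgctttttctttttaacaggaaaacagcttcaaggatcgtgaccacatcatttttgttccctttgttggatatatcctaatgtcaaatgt
Lgals9 promoter, chr11:78984875-78985174, minus strand: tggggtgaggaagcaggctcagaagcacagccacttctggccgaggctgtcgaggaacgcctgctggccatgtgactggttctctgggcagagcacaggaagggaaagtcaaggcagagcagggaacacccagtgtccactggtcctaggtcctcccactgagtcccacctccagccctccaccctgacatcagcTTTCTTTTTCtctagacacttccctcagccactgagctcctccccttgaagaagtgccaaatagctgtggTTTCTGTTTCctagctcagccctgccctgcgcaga
A match is a string of letters and not a measured binding site.

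Cd80 and Cd86, the ligands of CD28 and CTLA-4, did not follow the PD-1 ligands in macrophages and dendritic cells. Macrophages had 59.5 CPM in Ctrl against 78.3 CPM in KD for Cd80 (log2 ratio 0.40, 95% interval 0.29 to 0.50), 1.32-fold higher and under the 1.5-fold limit. Dendritic cells had 107 CPM in Ctrl against 153 CPM in KD (log2 ratio 0.52, 95% interval 0.33 to 0.70), 1.43-fold higher and likewise not a call, although it became a call in cells thinned to equal depth (0.80) and with classes built without clusters (0.96). In both classes the KD interval lay above the Ctrl interval. Granulocytes, with the highest Cd80 levels of any class, went the other way, with 346 CPM in Ctrl against 219.6 CPM in KD (log2 ratio -0.65, 95% interval -0.79 to -0.52). That call was lost when each cell weighed the same (-0.46), after thinning (-0.54), with an equal mix of 5 of the 6 sub-clusters (-0.32) and without the immature and low-UMI sub-clusters (-0.54). Immature granulocytes were the only granulocyte sub-cluster with a call of its own (237 and 99 CPM), beside 6.93% lower and 6.36% higher over all gene ratios there. In macrophage sub-clusters Cd80 was called higher in KD in the Ccl8 and Mmp12 cells (29.2 and 49.1 CPM) and lower in the cells with granulocyte genes (177 and 98.1 CPM), among 9 measured. Over all gene ratios in these sub-clusters, 5.72% were called higher and 6.45% lower, so the Cd80 calls are a description of single sub-clusters. Migratory DC-like cells carried the most Cd80 of the dendritic states, 344 and 269 CPM. T cells held 58.4 and 55 CPM, close to Ctrl macrophages, and Lef1 and Ncr1 cells 4.31 and 9.18 CPM. The thinned share with a UMI was 8.49% and 10.4% of Ctrl and KD macrophages and 7.87% and 7.08% of T cells, so Ctrl macrophages could not be told apart from T cells by this measure. Endothelial-like and tumor-like cells were near the level of Lef1 and Ncr1 cells, with 8 and 55 UMIs in the former (log2 ratio 0.88, 95% interval -0.20 to 2.16), not a call. Tumor-like cells, with 10 and 8 UMIs, were under the minimum of 20 over both libraries.

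Cd86 levels were high in antigen-presenting cells and low elsewhere. Dendritic cells had 543 CPM in Ctrl against 612 CPM in KD (log2 ratio 0.17, 95% interval 0.09 to 0.26) and macrophages 428 CPM in Ctrl against 467 CPM in KD (log2 ratio 0.13, 95% interval 0.09 to 0.17). Both were slightly higher in KD, by 1.13-fold and 1.09-fold, with intervals that left out 0 but far below the 1.5-fold limit. B cells had 538 and 379 CPM and Kupffer-like cells 536 and 409.9 CPM, lower in KD in both and under 1.5-fold. In granulocytes it was a call, with 121 CPM in Ctrl against 53.2 CPM in KD (log2 ratio -1.19, 95% interval -1.43 to -0.95), and the call was lost only when classes were built without clusters (-0.54). Endothelial-like cells, at 35.7 and 32.8 CPM, were near the level of T cells, 34.9 and 43.7 CPM. After thinning, 4.07% and 2.66% of endothelial-like cells had a UMI against 5.67% and 6.44% of T cells. Whether the endothelial-like Cd86 is background was not tested. Tumor-like cells had 24.6 and 16.1 CPM. Macrophage sub-clusters differed in direction. The Ly6i and Cxcl11 cells had 586 and 789 CPM (log2 ratio 0.43, 95% interval 0.36 to 0.50) and classical monocyte-like cells 521 and 365 CPM (log2 ratio -0.51, 95% interval -0.63 to -0.39), both with an interval that left out 0 but under 1.5-fold. Macrophages with T cell genes were a call lower in KD (516 and 332 CPM), and the call higher in the Ltc4s and Pf4 cells rests on 4 UMIs in 9 Ctrl cells. These were the only calls in 11 measured macrophage sub-clusters, beside 6.45% lower and 5.72% higher over all gene ratios there. In granulocytes, 3 of 5 measured sub-clusters were called lower, the interferon sub-cluster with 143 and 44.4 CPM among them, beside 6.93% lower and 6.36% higher over all gene ratios in the granulocyte sub-clusters. The Cd209a cells had the highest level of the dendritic states, 804 and 795 CPM, with a log2 ratio of -0.02. The pDC-like cells, at 35.5 and 34.7 CPM, were at the level of T cells.

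Lgals9, the gene of galectin-9, was led by the resident cells of the liver sinusoid. Kupffer-like cells (Clec4f, Vsig4, Timd4) had 209.7 CPM in Ctrl against 157 CPM in KD from 52 and 82 UMIs (log2 ratio -0.42, 95% interval -0.94 to 0.11). Endothelial-like cells had 167 CPM in Ctrl against 123 CPM in KD (log2 ratio -0.44, 95% interval -0.68 to -0.19), 1.36-fold lower in KD, with an interval that left out 0 and a size under the limit for a call. The intervals of these 2 classes overlapped in each library. Macrophages, at 78.2 and 85.2 CPM (log2 ratio 0.12, 95% interval 0.03 to 0.22), and granulocytes, at 93.7 and 79.7 CPM (log2 ratio -0.23, 95% interval -0.48 to 0.02), came next, and dendritic cells were lowest with 33.6 and 34.6 CPM. After thinning, 25.2% and 19.3% of endothelial-like cells and 11% and 11.4% of macrophages had a UMI, above the 4.57% and 4.84% of dendritic cells, the lowest share. Tumor-like cells had 52.2 and 46.7 CPM (log2 ratio -0.16, 95% interval -0.64 to 0.31). No call was made in any of the 5 classes, nor in any of the 12 macrophage, 4 dendritic and 5 granulocyte sub-clusters with at least 20 UMIs. Over all gene ratios in these sub-clusters, calls lower and higher were 6.45% and 5.72%, 6.19% and 4.69%, and 6.93% and 6.36%, in the same order.

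Pvr and Nectin2, ligands of CD226 and TIGIT, had their highest levels in non-hematopoietic classes, although macrophages supplied 49% and 54.4% of all Pvr UMIs. Pvr was highest in tumor-like cells, with 64 (95% interval 53.5 to 76.1) CPM in Ctrl and 60.5 (95% interval 47.9 to 75.3) CPM in KD (log2 ratio -0.08, 95% interval -0.51 to 0.33). Macrophages held 30.1 CPM in Ctrl against 30.6 CPM in KD (log2 ratio 0.02, 95% interval -0.13 to 0.17), endothelial-like cells 30.5 and 26.5 CPM and dendritic cells 28.3 and 23.2 CPM, and neighboring intervals of these 3 overlapped in both libraries. T cells, with 11.3 and 10.2 CPM, were the class of comparison, and after thinning 4.44% and 5.07% of macrophages and 1.68% and 1.47% of T cells had a UMI. Granulocytes were lower than T cells, with 13 and 18 UMIs (7.04 and 2.47 CPM), and the call there (log2 ratio -1.51, 95% interval -2.62 to -0.36) was lost under 3 of 10 alternatives, with ratios up to -0.55. In macrophages the Il1a and Cxcl1 cells had the most Pvr, 57.9 and 59.6 CPM (log2 ratio 0.04, 95% interval -0.29 to 0.38), near the level of tumor-like cells.

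Nectin2 was highest in endothelial-like cells. Endothelial-like cells had 98.4 (95% interval 81.1 to 118) CPM in Ctrl and 92.4 (95% interval 83.5 to 102) CPM in KD (log2 ratio -0.09, 95% interval -0.40 to 0.22). Tumor-like cells had 24.6 CPM in Ctrl against 25.3 CPM in KD (log2 ratio 0.04, 95% interval -0.64 to 0.70) and macrophages 5.01 CPM in Ctrl against 5.77 CPM in KD (log2 ratio 0.20, 95% interval -0.16 to 0.57). Lymphocytes were at or near 0, with 9 and 1 UMIs in T cells and 0 in the B cells of both libraries, which allows levels of up to 3.78 and 1.21 CPM. The thinned share was 14.6% and 12.6% of endothelial-like cells, 0.798% and 0.857% of macrophages and 0.0659% and 0.0638% of T cells. Granulocytes had 1 and 15 UMIs and were not measured.

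Vsir, the gene of VISTA, was the only ligand whose ratio was above 0 in all 5 classes. That direction was not kept under every alternative. In endothelial-like cells the ratio was -0.35 after thinning, and in dendritic cells -0.24 with classes built without clusters. Granulocytes had 116 CPM in Ctrl against 176 CPM in KD (log2 ratio 0.59, 95% interval 0.38 to 0.81), 1.51-fold higher and just past the limit for a call, which was lost under 6 of 12 alternatives, with ratios down to 0.41. Macrophages had 100.1 CPM in Ctrl against 127 CPM in KD (log2 ratio 0.34, 95% interval 0.26 to 0.42) and endothelial-like cells 72.3 CPM in Ctrl against 92.9 CPM in KD (log2 ratio 0.36, 95% interval 0.02 to 0.72), neither a call. Dendritic cells were low, with 36.3 and 40.2 CPM (log2 ratio 0.15, 95% interval -0.18 to 0.48). Tumor-like cells were lower, with 20 and 23 UMIs (9.85 and 17.6 CPM, log2 ratio 0.84, 95% interval -0.09 to 1.78). Both intervals held 0. In Kupffer-like cells it went the other way, 84.7 CPM in Ctrl against 38.3 CPM in KD, a call lower in KD from 21 and 20 UMIs (log2 ratio -1.14, 95% interval -2.10 to -0.19), and T cells had 60.3 and 52.7 CPM. The thinned shares were 16.1% and 21.8% of granulocytes and 13.6% and 18.1% of macrophages, beside 9.26% and 9.38% of T cells and 2.53% and 2.51% of B cells. Classical monocyte-like cells had 92.1 and 131 CPM (log2 ratio 0.51, 95% interval 0.27 to 0.76) and the Il1a and Cxcl1 cells 69 and 92.8 CPM (log2 ratio 0.43, 95% interval 0.14 to 0.71). Of the 8 genes, 5 (Cd274, Pdcd1lg2, Pvr, Nectin2 and Vsir) overlap a gene on the opposite strand in GENCODE M21, for Vsir the gene Cdh23, and whether the counting used strand is not given in the sources used here.

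At equal depth, single cells carried several ligands at once. Of thinned cells, 50.8% of Ctrl and 27.2% of KD granulocytes had a UMI of at least 2 of the 8 ligands, as had 44.2% and 39.4% of macrophages, 37.2% and 32.8% of dendritic cells, and 9.0% and 8.10% of T cells. These cells share a library, and the shares are given as a description.

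The receptors of these ligands and 12 other ligands of the same families were read in the same classes. Of 9 receptor genes (Pdcd1, Cd28, Ctla4, Havcr2, Tigit, Cd226, Cd96, Pvrig and Selplg), all were measured in T cells, where 1 was called higher in KD, the CD80 and CD86 receptor gene Ctla4, with 289 CPM in Ctrl against 518 CPM in KD (log2 ratio 0.84), and 0 were called lower (background 6.2% higher and 4.11% lower among 15166 genes). The T cell clusters were present in different proportions in the libraries. A cluster led by Cd4 and Tnfsf11, with Ctla4 among its leading genes, held 332 of 3216 Ctrl and 507 of 1618 KD T cells. One led by Ccl5 and Setbp1, with Cd8a, held 2043 and 716. The part of this makeup in the Ctla4 value was not tested. Calls of receptor genes higher and lower were 0 and 0 of 9 measured in macrophages. Dendritic cells had 2 and 0 of 6 (Havcr2 and Cd226 higher) and granulocytes 1 and 1 of 5 (Selplg higher, Pdcd1 lower). Endothelial-like cells had 1 and 1 of 6 (Cd28 higher, Pdcd1 lower) and tumor-like cells 0 and 1 of 2 (Havcr2 lower). Several of these calls rest on few UMIs. Pdcd1 had 18 and 27 UMIs (Ctrl and KD) in endothelial-like cells and 10 and 12 in granulocytes. Cd28 had 11 and 83 UMIs in endothelial-like cells, and Havcr2 71 and 29 in tumor-like cells (log2 interval -1.33 to -0.01). Summed T cell markers were 233 and 186 CPM in endothelial-like cells, beside 4941 and 4501 CPM in T cells. The part of T cell UMIs in the receptor calls was not tested. Havcr2, the gene of the galectin-9 receptor TIM-3, had 135 CPM in Ctrl against 205 CPM in KD (log2 ratio 0.61) in dendritic cells and 35 CPM in Ctrl against 22.2 CPM in KD (log2 ratio -0.66) in tumor-like cells. Selplg, whose product binds VISTA, had 179 CPM in Ctrl against 323 CPM in KD (log2 ratio 0.85) in granulocytes. Among the other ligands, Lgals3 (galectin-3) was called higher in KD in granulocytes, with 331 CPM in Ctrl against 592 CPM in KD (log2 ratio 0.84), and in endothelial-like cells, with 60.1 CPM in Ctrl against 112 CPM in KD (log2 ratio 0.90). Nectin1 was called higher in macrophages and dendritic cells, with 39.1 CPM in Ctrl against 69.9 CPM in KD (log2 ratio 0.84) in the latter, and lower in tumor-like cells, with 23.2 CPM in Ctrl against 8.42 CPM in KD (log2 ratio -1.46). Over that list of 12, calls higher and lower were 2 and 1 of 8 measured genes in macrophages, 1 and 1 of 7 in dendritic cells, 2 and 0 of 4 in granulocytes, 1 and 0 of 6 in endothelial-like cells and 0 and 1 of 5 in tumor-like cells. Over all genes, calls higher and lower were 6.9% and 7.65% in macrophages, 4.78% and 5.16% in dendritic cells and 12.7% and 12.3% in granulocytes. They were 6.03% and 7.92% in endothelial-like cells and 4.74% and 14.3% in tumor-like cells. With so few genes measured per class, the calls of both lists in these classes are a description of single genes.

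Genes of the interferon pathway were, like Cd274, more often called lower than higher in the 5 classes. Of 19 such genes, 11 were called lower and 1 higher in macrophages, with a median log2 ratio of -0.69 beside 0.01 over all genes measured. Dendritic cells had 9 lower and 1 higher of 19 (median -0.56 beside -0.02), granulocytes 13 lower and 2 higher of 19 (-1.63 beside 0.10), endothelial-like cells 10 lower and 0 higher of 19 (-0.64 beside -0.02) and tumor-like cells 9 lower and 1 higher of 18 (-0.48 beside -0.15). Over all genes, calls lower and higher were 7.65% and 6.9% in macrophages, 5.16% and 4.78% in dendritic cells and 12.3% and 12.7% in granulocytes. They were 7.92% and 6.03% in endothelial-like cells and 14.3% and 4.74% in tumor-like cells. The list was chosen with earlier results of these data known, so these counts are a description. The part of macrophage UMIs in the endothelial-like and tumor-like counts was not tested. Irf1, a transcription factor downstream of interferon-gamma, was 349 CPM in Ctrl against 158 CPM in KD (log2 ratio -1.14) in macrophages, 883 CPM in Ctrl against 211 CPM in KD (log2 ratio -2.06) in granulocytes and 223 CPM in Ctrl against 93.6 CPM in KD (log2 ratio -1.25) in endothelial-like cells. Socs1, a feedback inhibitor of the pathway, was 102 CPM in Ctrl against 33.8 CPM in KD (log2 ratio -1.59) in macrophages and 112 CPM in Ctrl against 16.9 CPM in KD (log2 ratio -2.72) in granulocytes. The chemokine gene Cxcl10 went from 1494 to 84.8 CPM (log2 ratio -4.14) in granulocytes, Ctrl to KD, and from 999.6 to 182 CPM (log2 ratio -2.46) in endothelial-like cells. Ifngr1, the ligand-binding chain of the interferon-gamma receptor, was the gene called higher in macrophages, with 156 CPM in Ctrl against 300.3 CPM in KD (log2 ratio 0.94), and in dendritic cells, with 219 CPM in Ctrl against 338 CPM in KD (log2 ratio 0.63), and in granulocytes it was called higher together with Ifngr2. Ifnar1 and Ifnar2, the chains of the type I interferon receptor, had log2 ratios between -0.19 and 0.15 in macrophages, dendritic cells, granulocytes and endothelial-like cells. Outside the 5 classes, calls lower and higher were 2 and 1 of 19 genes in T cells, where Cd274 was alike in the libraries, 10 and 0 of 17 in B cells, where Cd274 was not a call, 3 and 1 of 18 in Lef1 and Ncr1 cells and 4 and 1 of 18 in Kupffer-like cells, where it was. The shares over all genes were 4.11% and 6.2% in T cells and 4.12% and 2.24% in B cells. They were 4.59% and 3.11% in Lef1 and Ncr1 cells and 7.14% and 5.51% in Kupffer-like cells.

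**Figure D4:**
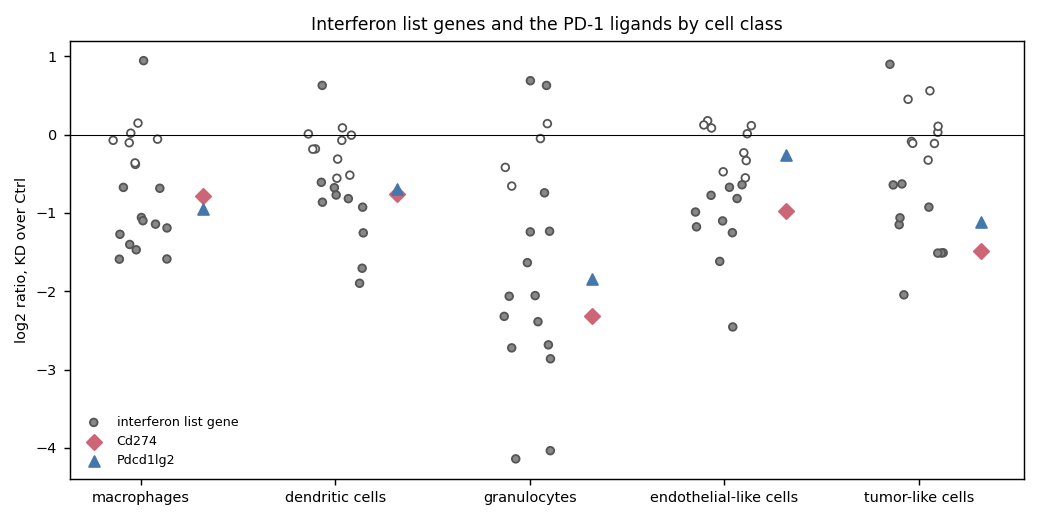
Log2 ratio of CPM, KD over Ctrl (vertical axis), of the interferon list genes with at least 20 UMIs (circles, filled where called) in 5 cell classes, with Cd274 (diamonds) and Pdcd1lg2 (triangles) beside them. In granulocytes 13 of the 19 genes were called lower, as were Cd274 at -2.31 and Pdcd1lg2 at -1.84.

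The genes whose levels were most like each ligand were sought over 18 points, the sums of 9 classes in 2 libraries, among 10953 genes with at least 500 UMIs. The points share libraries and differ in depth, so Pearson correlations of log2(CPM + 1) are a description. For Cd274 the 3 closest genes were Samhd1, Gm31718, Zfp36 (r from 0.905 to 0.934), Samhd1 encoding a nucleotide hydrolase and Zfp36 an RNA-binding regulator of cytokine transcripts. For Pdcd1lg2 they were Gpr132, Ptger4, Malt1 (0.881 to 0.908), and for Cd80 Il1r2, Arpc3, Gm45266 (0.903 to 0.927), of which Il1r2 is the decoy receptor of interleukin-1 and a granulocyte marker. Cd86 was followed by Marchf1, Fgd2, Pkib (0.934 to 0.937), where Marchf1 encodes a ubiquitin ligase of antigen-presenting cells. Lgals9 was followed by Slc40a1, Mef2a, Cpeb4 (0.866 to 0.882), with Slc40a1 the iron exporter of Kupffer cells, and Pvr by Nit2, Cltb, Tsc22d1 (0.900 to 0.936). For Nectin2 the closest genes were Ifi203-ps, Dock1, Septin10 (0.969 to 0.981) and for Vsir Arrb2, Lcp2, Cotl1 (0.844 to 0.858). Among the ligands themselves Cd274 was most like Cd86 (r = 0.656) and Cd80 (r = 0.655), and Pdcd1lg2 and Nectin2 had the lowest value (r = -0.803).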

How the data were processed

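CD45+ cells of pooled liver metastases were profiled in 2 libraries, grouped by the hairpin in the labels. The deposited counts are UMI counts for each gene in each barcode, produced by the authors in Cell Ranger 7.1.0 and not normalized. The submitters' processing notes name GRCm39, and the RefSeq promoters used here are from GRCm38.p6, so no coordinate was carried between builds. The 8 ligands, the gene lists and the markers were chosen with earlier results of these data known.

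Barcodes were dropped if they had fewer than 200 or more than 6000 genes, over 30000 UMIs or over 10% of UMIs from mitochondrial genes. Seurat 5.3.0 (R 4.3.3) clustered both libraries together without integration, on 2000 variable genes less the ligands, 20 principal components and resolution 0.5. A cluster was named when at least 3 markers of a list were 2-fold higher than in the remaining cells and its 10 leading genes did not hold more markers of another class. Macrophages, dendritic cells and granulocytes were clustered again. Doublets were scored with Scrublet (scanpy 1.11.5) and removed only in an alternative, the highest 0.8% per 1000 cells. UMIs were summed per class and library, with exact Poisson intervals, exact conditional binomial intervals of the ratio and exact Clopper-Pearson intervals of shares, and no test was run, since each group was 1 library. The script was tested on simulated data. Shares used cells thinned to 1500 UMIs, which left out shallower cells (124 and 183 granulocytes, 76 and 58 macrophages). Named genes were the 8 ligands, the fixed lists and, per ligand, the 3 genes of highest correlation. Alternatives changed the cell filter, doublets, scaling (edgeR 4.0.16 TMM), cell weight, depth, clustering, minimum count and sub-clusters. The equal mix used only sub-clusters with at least 20 cells in each library. For equal cell weight and the equal mix no interval was computed, and the main interval was moved by the change in the ratio. The 3 promoter motifs were chosen after the data were seen.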

Additional observations from a re-analysis of the deposited data

Results flagged for a closer look

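Some ligands had ratios with intervals on opposite sides of 0 in 2 classes, and these differences between classes were not tested. Cd80 was higher in KD in macrophages (log2 ratio 0.40) and dendritic cells (0.52) and lower in granulocytes (-0.65). Cd86 was higher in macrophages (0.13) and dendritic cells (0.17) and lower in granulocytes (-1.19). Lgals9 was higher in macrophages (0.12) and lower in endothelial-like cells (-0.44).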

How the results depend on the processing

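Of 12 called ratios, 12 kept their direction under every alternative run for them and 6 also stayed calls throughout: Cd274 in macrophages, granulocytes, endothelial-like cells and tumor-like cells, and Pdcd1lg2 in macrophages and granulocytes. By thinned share the endothelial-like values of Cd274 were not clearly above those of T cells in either library. By CPM the Ctrl value was (116 against 88.1). No alternative removed macrophage UMIs from endothelial-like or tumor-like cells beyond leaving out likely doublets. The number of ligands called stayed within 1.5 times the main number under 48 of 56 alternatives. In dendritic cells it was 1 instead of 2 without likely doublets and 1 with classes built without clusters, where Cd80 was higher and Cd274 had a log2 ratio of -0.38. In granulocytes it was 3 instead of 6 after thinning and 3 without clusters. In endothelial-like cells it was 2 instead of 1 when each cell weighed the same, by Cd80. That setting, like the equal mix of sub-clusters, had no interval of its own, and the main interval was moved with the ratio. Calls made or kept under these settings therefore rest on the ratio and a borrowed interval. In tumor-like cells it was 2 under TMM scaling, by Vsir, 2 when each cell weighed the same, by Cd86, and 2 without cells holding a Dcn or Lum UMI, by Vsir, the last an alternative chosen after seeing the data. The causes of these moves were not tested. Without likely doublets the tumor-like ratio of Cd274 was -2.67 and the endothelial-like ratio -1.39. TMM scaling moved all ratios up by 0.10 in endothelial-like and 0.11 in tumor-like cells. With 2 other random starts of the macrophage sub-clustering, an alternative chosen after seeing the data, 94.3% and 83.9% of cells fell in the matching sub-cluster, so values of single macrophage sub-clusters are less certain than class values, which do not use them. No replicate could be left out, and no paired analysis was possible because each group was 1 library of pooled lesions. Ligands with few UMIs (Pvr and Nectin2 in granulocytes, Cd80 and Vsir in tumor-like cells) are limited by depth.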
